A study of Mus musculus with 4 samples.

Results

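Interferon-stimulated genes and their regulators were followed in mouse epiblast stem cells after knockdown of Tox4, a gene for a chromatin-associated HMG-box protein. The set was taken by gene symbol from the table of the series. It held 9 genes: Isg15, Oasl2, Bst2, Ifi35 and Gbp2 as interferon-stimulated effectors, the chemokine gene Cxcl10, and the regulators Stat2, Irf1 and Irf9. Of these, 8 had a row among the 15429 genes of the table, and all 8 passed the filter on low values. Isg15 was not analysed here. They were selected on the measured difference between Tox4 and Luc libraries as well as for their known role, so their own differences are given as a description, without a p-value.

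The cells were of OE7, a line taken from the post-implantation mouse embryo that carries the Oct4-Gip transgene, a fluorescent Oct4 reporter, at passages 21 to 25. They were kept on fibronectin in N2B27 medium with Activin A (20 ng/ml) and Fgf2 (12 ng/ml). One group received Luc esiRNA as the control and the other Tox4 esiRNA, with 2 libraries each, and both groups were transfected with 1000 ng of esiRNA, a digest of long double-stranded RNA into short interfering RNAs. All 4 libraries therefore came from cells treated with lipofectamine (2 µl in a well of a 6-well plate) and short RNA, and cells without transfection were not analysed here. The labels leave unsaid whether 2 libraries of a group stand for 2 cultures, and p-values measure only the spread between libraries, technical or not.

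Cells answer interferon through receptors whose Janus kinases phosphorylate Stat proteins. Type I interferons act through a complex that holds Stat2 and Irf9 and binds interferon-stimulated response elements, called ISRE, while interferon gamma acts through gamma-activated sites, called GAS, and through the factor Irf1. Pluripotent cells are known for a weak interferon response, and they still express some of its target genes at a basal level.

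The 250 bases before the annotated start were read from RefSeq promoters (GRCm38.p6) for all 8 measured genes. They were searched on both strands for the ISRE core (GAAA, 2 bases of any kind, GAAA), for the GAS motif (TTC, 3 bases of any kind, GAA) and for the NF-kB motif. An ISRE core lay before 4 of the 8 genes, Bst2, Gbp2, Stat2 and Cxcl10, against 251 of the 8882 tested genes with a promoter (2.83%). These 4 sequences are shown 5′ to 3′ on the gene's own strand because they hold the element of the interferon complex, and capitals mark the ISRE core or, where the match is on the other strand, its complement.
Bst2, chr8:71537473-71537722, minus strand: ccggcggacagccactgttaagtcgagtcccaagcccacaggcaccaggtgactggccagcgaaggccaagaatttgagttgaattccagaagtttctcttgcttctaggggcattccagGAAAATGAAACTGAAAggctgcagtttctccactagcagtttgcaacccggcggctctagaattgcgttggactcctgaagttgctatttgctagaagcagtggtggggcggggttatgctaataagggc
Gbp2, chr3:142620413-142620662, plus strand: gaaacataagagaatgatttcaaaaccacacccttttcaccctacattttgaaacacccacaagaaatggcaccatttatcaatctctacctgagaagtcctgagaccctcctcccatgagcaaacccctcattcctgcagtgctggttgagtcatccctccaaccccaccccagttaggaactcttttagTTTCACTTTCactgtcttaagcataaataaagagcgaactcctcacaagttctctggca
Stat2, chr10:128270248-128270497, plus strand: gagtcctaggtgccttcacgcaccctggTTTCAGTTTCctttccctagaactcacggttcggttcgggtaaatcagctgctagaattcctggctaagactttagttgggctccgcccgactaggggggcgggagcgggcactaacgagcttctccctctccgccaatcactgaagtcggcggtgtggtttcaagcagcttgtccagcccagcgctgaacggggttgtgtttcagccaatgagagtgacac
Cxcl10, chr5:92348890-92349139, minus strand: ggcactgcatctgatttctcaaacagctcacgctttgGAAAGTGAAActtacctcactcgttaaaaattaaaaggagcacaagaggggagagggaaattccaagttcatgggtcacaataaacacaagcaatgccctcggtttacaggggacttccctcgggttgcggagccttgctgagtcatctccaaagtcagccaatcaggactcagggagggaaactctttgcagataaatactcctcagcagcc

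In Bst2 a pair of ISRE matches overlapped, from 130 to 121 and from 124 to 115 bases before the start, and a GAS and an NF-kB match lay beside or across them. The match of Gbp2 lay 59 to 50 bases before the RefSeq start, which is downstream of the first base of the gene in GENCODE (142620602). Matches stood 222 to 213 bases before the start of Stat2 and 213 to 204 before that of Cxcl10. Cxcl10 also had 2 matches of the NF-kB motif, at 159 to 150 and 103 to 94 bases. A GAS motif lay before 2 of the 8 genes, Irf1 and Bst2 (25.0%, against 6.85% of tested genes). An NF-kB motif lay before 3, Irf1, Bst2 and Cxcl10 (37.5%, against 5.52%). Irf1 and Irf9 had more than 1 annotated start, and a gene was counted if any of its windows held a match. Both Irf1 matches lay in the same window, and its other window held none. The stretch of Irf1 around its GAS motif, in capitals, was added after the matches had been seen, as the only member with a GAS motif and no ISRE core in this window.
Irf1, chr11:53769899-53769957, plus strand: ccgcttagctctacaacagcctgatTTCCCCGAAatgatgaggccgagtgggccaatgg

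No match to any of these motifs was found in the windows of Oasl2, Ifi35 and Irf9. Both windows of Irf9 lie downstream of the first base of the gene in GENCODE (55603571), so the bases before that one were not searched. A match is a run of letters and not a measured binding site.

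**Figure D1:**
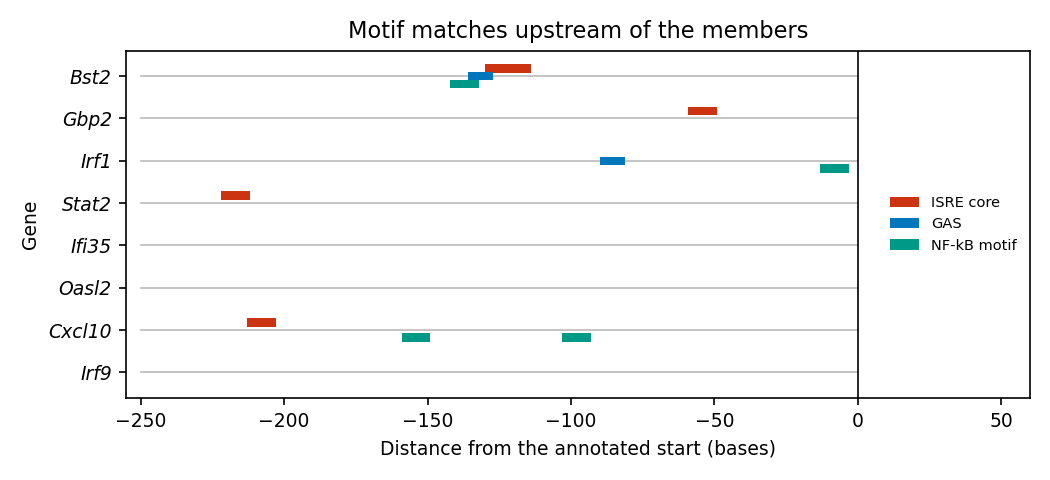
Positions of motif matches in the 250 bases before the annotated start (vertical line at 0) of the 8 measured genes, with 1 row per gene and 1 colour per motif. ISRE matches (red) stand before Bst2, Gbp2, Stat2 and Cxcl10, at different distances, and the rows of Ifi35, Oasl2 and Irf9 are empty. For Irf1 and Irf9, which have more than 1 annotated start, all windows share 1 row.

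Depth was 12778046 to 19008811 reads per library, worked back from the deposited values. Tox4 was at 16.7 and 17.5 FPKM (fragments scaled to gene length and depth) with Luc esiRNA and at 8.65 and 8.89 FPKM with Tox4 esiRNA, a ratio of 0.512 of the group means. All 9 epiblast stem cell markers were detected, with summed levels of 1495 to 1538 FPKM in the 4 libraries. The largest part was Pou5f1, at 582.1 to 612.8 FPKM, so the sum says little about the others. Sox2 rose from 76.34 and 76.35 to 93.19 and 87.59 FPKM (limma adjusted p = 0.0355), and the other 8 did not pass. Both Tox4 libraries were under both Luc libraries in 5 of the 9 and over them in 2, against 26.7% and 25.3% of all tested genes. Summed levels of 7 measured fibroblast markers were 20.8 and 21.0 FPKM with Luc esiRNA and 19.1 and 20.0 with Tox4 esiRNA, and those of 2 measured endothelial markers were 1.30 and 0.801 FPKM against 0.389 and 0 FPKM, on at most 9 reads per gene. For 6 of 9 macrophage and leukocyte markers that were measured, the sums were 13.1 and 18.2 FPKM with Luc esiRNA and 8.68 and 9.07 with Tox4 esiRNA. Most of that sum was Cd68, a lysosomal protein gene, at 11.4 and 12.9 against 7.28 and 7.85 FPKM, and the other 5 rested on at most 26 reads in a library. Emr1, a gene of a macrophage surface protein, was at 0.381 and 0.483 against 0.140 and 0.324 FPKM, and Itgam was at most at 0.486 FPKM. Cd14 was at 0.823 and 1.43 against 0.949 and 0.902 FPKM. Tyrobp and Fcer1g had 1 read each in Luc replicate 2 and were listed at 0 in the other 3 libraries. The fibroblast, macrophage and endothelial sums were all lower in the Tox4 libraries, as were 7 of the 8 measured interferon genes. The part of such cells in those differences was not tested. In such bulk libraries, fewer expressing cells and less RNA per cell cannot be told apart.

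Of the 8 measured genes 7 were lower in both Tox4 libraries than in both Luc libraries, and Irf9 was higher. Gene by gene, 26.7% of the 12403 tested genes had both Tox4 libraries under both Luc libraries, and 25.3% had both over. The median log2 difference, Tox4 minus Luc on the log2(FPKM + 1) scale, was -0.39 over the 8 genes and -0.0034 over all tested genes. Over all tested genes limma called 2.62% as lower and 1.89% as higher, at an adjusted p under 0.05. Limma-voom on the recovered reads called 5.87% as lower and 5.95% as higher. Since these values chose the members, the counts of members that were lower or higher carry no weight of their own. For the same reason members past a threshold are not counted here.

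The effector genes ran from a few FPKM to the highest level of the set. On the log2(FPKM + 1) scale Gbp2 had the largest difference of the 8, whereas by ratio and in limma-voom Cxcl10 had. Gbp2 encodes a guanylate-binding protein, an interferon-induced GTPase that acts against intracellular pathogens. It was at 43.5 and 41.6 FPKM in the Luc libraries and at 20.3 and 19.8 FPKM in the Tox4 libraries, on 1953, 1476, 707 and 598 reads. Both Tox4 libraries were near a level 52.9% under the control mean, with a log2 difference of -1.05 (SE 0.04, 95% interval -1.15 to -0.95), which put Gbp2 at rank 37 of the 12403 genes when ordered from the largest fall. The gene (ENSMUSG00000028270) occupies bases 142620602 to 142638008 of chromosome 3, plus strand, in GRCm38. Of the 50-base words in its transcripts 2.03% also occurred in transcripts of another gene, its paralog Gbp2b. The read length is not known here, and how reads that match both genes were counted is not stated.

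Oasl2 encodes an oligoadenylate synthetase-like protein with ubiquitin-like domains, an antiviral effector. Its level was 3.97 and 3.84 FPKM in the Luc libraries and 2.35 and 2.36 FPKM in the Tox4 libraries, on 190, 145, 87 and 76 reads. The groups did not overlap, and the spread within each was small beside the gap. The log2 difference was -0.55 (SE 0.08, 95% interval -0.75 to -0.35), a mean 39.7% lower.

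Bst2, the gene of tetherin, which holds budding enveloped viruses at the cell surface, was by far the most abundant of the 8 per length. It stood at 258 and 262 FPKM in the Luc libraries and at 216 and 229 FPKM in the Tox4 libraries. The difference was modest, -0.22 on the log2 scale (SE 0.04, 95% interval -0.32 to -0.13) or a mean 14.4% lower, and the Tox4 libraries lay further apart than the Luc libraries. Ifi35, an interferon-induced leucine zipper protein gene, was at 9.99 and 9.33 FPKM against 6.87 and 7.73 FPKM. Its log2 difference was -0.36 (SE 0.07, 95% interval -0.54 to -0.18) on 152, 112, 81 and 79 reads.

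Cxcl10 encodes a chemokine that attracts T cells through the receptor Cxcr3. Its values were 4.17 and 3.30 FPKM in the Luc libraries and 1.71 and 1.31 FPKM in the Tox4 libraries. They rested on 85, 53, 27 and 18 reads, the fewest of the 8 genes, and the libraries of each group spread widely. The groups were still apart, with a mean 59.5% lower and a log2 difference of -0.91 (SE 0.14, 95% interval -1.24 to -0.58), which was -1.29 in limma-voom on the reads, a scale without the added 1. Of its exon bases 133 overlap exons of Art3 on the opposite strand, which was at a mean of 0.363 FPKM in the Luc libraries and 0.236 FPKM in the Tox4 libraries.

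The 3 regulators differed among themselves. Irf1, the transcription factor of the gamma interferon response, was at 41.2 and 41.3 FPKM in the Luc libraries and at 30.9 and 30.3 FPKM in the Tox4 libraries. The libraries of each group were nearly identical, on 1145 to 2316 reads, and the log2 difference was -0.42 (SE 0.04, 95% interval -0.51 to -0.33). Stat2, a Stat protein of the type I complex, was at 11.7 and 12.6 FPKM against 10.9 and 10.2 FPKM. Its groups did not overlap, but the nearest libraries were close together, and the log2 difference was -0.18 (SE 0.06, 95% interval -0.34 to -0.03). Irf9, the DNA-binding partner of Stat2, was at 1.79 and 1.83 FPKM in the Luc libraries and 2.01 and 1.85 FPKM in the Tox4 libraries. The interval of its log2 difference, 0.06 (SE 0.10), ran from -0.19 to 0.31 and so covered 0. Irf9 shares 123 exon bases with Rnf31 on the same strand.

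**Figure D2:**
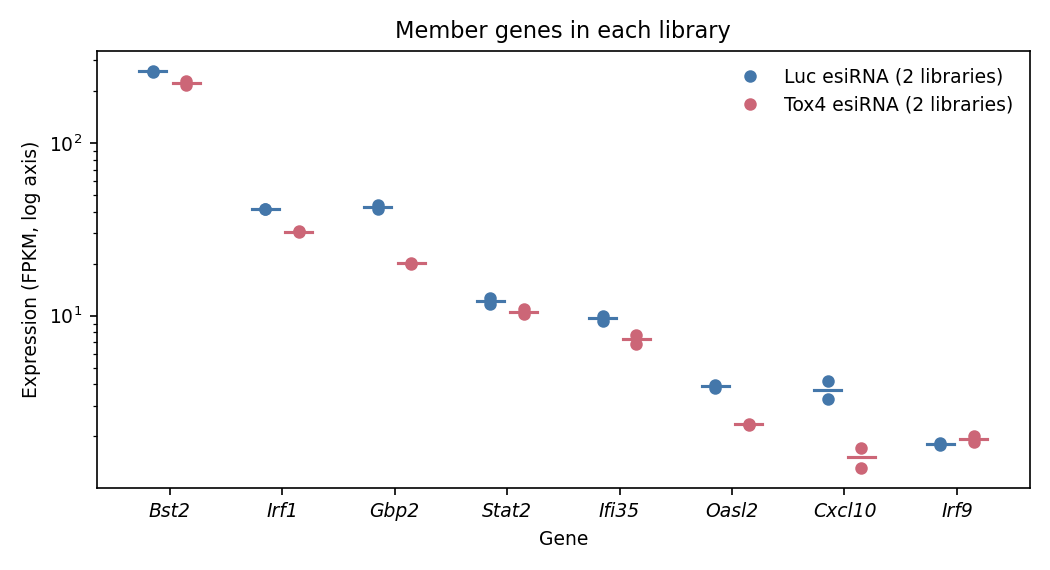
Expression of the 8 measured genes in FPKM on a log axis, with 1 point per library, 2 per group, and a bar at each group mean. In 7 genes both Tox4 libraries lie under both Luc libraries, with the widest gaps in Gbp2 and Cxcl10, and in Irf9 they lie slightly over.

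Ordered by level per length in the Luc libraries, the genes ran Bst2, Gbp2, Irf1, Stat2, Ifi35, Oasl2, Cxcl10 and Irf9. Gbp2 and Irf1 were neighbours at means of 42.6 ± 1.30 and 41.2 ± 0.0699 FPKM (SD, n = 2 each), a gap about as large as the spread of Gbp2. Oasl2 and Cxcl10 overlapped. With Tox4 esiRNA, Irf1 stood above Gbp2 (30.6 ± 0.391 against 20.1 ± 0.348 FPKM; SD, n = 2 each) and Irf9 above Cxcl10 (1.93 ± 0.112 against 1.51 ± 0.279 FPKM; SD, n = 2 each), and the order of the others did not change.

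**Figure D3:**
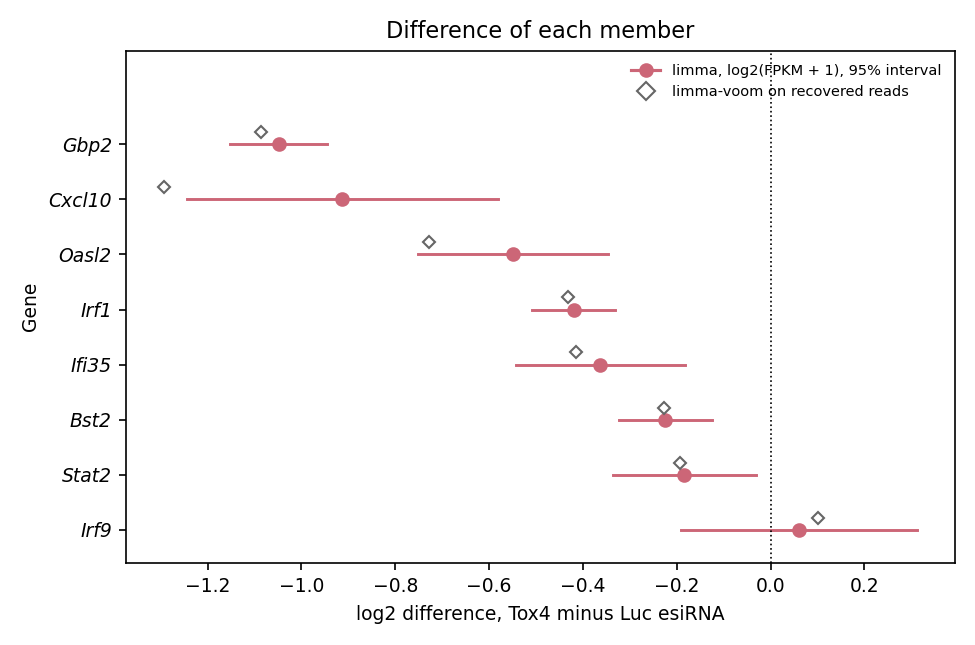
The log2 difference of each measured gene, Tox4 minus Luc esiRNA, from limma on log2(FPKM + 1) with its 95% interval (filled points) and from limma-voom on recovered reads (open diamonds). Gbp2 and Cxcl10 lie farthest to the left, the interval of Irf9 crosses 0, and the diamonds of Cxcl10 and Oasl2 stand further from 0 than the points.

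The rest of the interferon pathway was read from 8 lists drawn up by role, with 152 genes, of which 104 had a row in the table and 76 were tested. Earlier results of these data were known when the lists were drawn up, among them the falls of Gbp2b and Cxcl11. The shares called in the lists are therefore a description. In the lists as a whole 8 genes fell and 1 rose (limma, adjusted p under 0.05), that is 10.5% and 1.32% of those tested, against 2.62% and 1.89% of all tested genes, and 67 did not pass. Their median log2 difference was -0.10. The 12 interferon ligand genes of the lists were not analysed here. When Luc replicate 1 was left out 2 genes of the lists were past the threshold as lower, and without Luc replicate 2 only 1 was. Of the 9 genes called with all libraries, Gbp2b alone was past it in both of these fits, in which the remaining Luc library is assumed to vary like the Tox4 libraries.

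The listed receptor, kinase, Stat and Irf genes outside the set held no limma calls. Counts at an unadjusted p under 0.05 are given without the share over all tested genes, so they cannot be read as many or few. None of 7 tested receptor and Janus kinase genes passed with limma (0 at an unadjusted p under 0.05, median log2 difference 0.01), and limma-voom called none either. Jak1, a kinase shared by the type I and gamma interferon receptors, was at 22.8 and 23.5 FPKM in the Luc libraries and at 22.9 and 24.2 FPKM in the Tox4 libraries. Ifnar1, a chain of the type I receptor, was at 15.1 and 14.8 against 14.7 and 14.8 FPKM. Of 8 tested Stat and Irf genes outside the set none passed with limma (1 at an unadjusted p under 0.05, median -0.07), and limma-voom called 1, Stat3, as lower. Stat3, the Stat protein of interleukin 6 and Lif signalling, was at 18.4 and 17.6 against 15.6 and 16.0 FPKM (log2 difference -0.18, limma adjusted p = 0.0934). Stat6 was at 16.6 and 16.0 against 14.99 and 15.79 FPKM.

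The lists of sensors of foreign nucleic acid and of inhibitors held no limma calls either. Their counts at an unadjusted p under 0.05 likewise stand without the share over all tested genes. Among 15 tested sensor and adaptor genes both Tox4 libraries were under both Luc libraries in 10 and over them in 2 (median log2 difference -0.10). Over all tested genes the shares under and over were 26.7% and 25.3%. With limma 5 of the 15 had an unadjusted p under 0.05 and none an adjusted one, and limma-voom called 3 as lower and 1 as higher. The 3 were Zbp1 and Ifih1, sensors of nucleic acid, and Zc3hav1, which encodes an antiviral zinc finger protein, with log2 differences of -0.50, -0.47 and -0.33 (limma adjusted p = 0.0733, 0.0948 and 0.0598), named after their values were seen. Prkra, the gene of an activator of the double-stranded RNA kinase, was at 30.9 and 30.5 against 30.4 and 32.1 FPKM. Tbk1, the kinase that activates Irf3, was at 16.6 and 16.4 against 14.9 and 15.7 FPKM. Among 10 tested inhibitors none passed with limma (2 at an unadjusted p under 0.05, median -0.06), and limma-voom called 1, Ptpn2, as lower. The phosphatase gene Ptpn11 was at 37.1 and 38.9 against 37.3 and 36.2 FPKM, and Ptpn1 at 18.9 and 19.6 against 20.3 and 20.2 FPKM.

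Of 6 tested genes of interferon-inducible GTPases 4 fell with limma (66.7%) and none rose (median log2 difference -0.50). Gbp2b, the closest paralog of Gbp2 by shared transcript words, was at 21.97 and 19.46 FPKM in the control libraries and at 9.53 and 8.88 FPKM after knockdown (log2 difference -1.09, SE 0.07, limma adjusted p = 0.00276). Gbp3, which lies 47393 bases to the left of Gbp2, was at 4.26 and 4.24 against 2.20 and 2.20 FPKM (-0.71, SE 0.08, limma adjusted p = 0.0139). These are relatives of Gbp2, and the fall of Gbp2b was seen in an earlier analysis of these libraries. Irgm1, a gene of the related family of immunity-related GTPases, was at 12.0 and 12.5 against 7.51 and 7.65 FPKM (-0.63, SE 0.05, limma adjusted p = 0.00636). Igtp, of the same family, was at 19.9 and 18.7 against 16.0 and 15.9 FPKM (-0.26, limma adjusted p = 0.0445). Gbp3, Irgm1 and Igtp were not called when a Luc library was dropped, whichever it was (limma adjusted p up to 0.103, 0.0663 and 0.237), and Igtp also not when a Tox4 library was dropped. The call of Igtp also ended with no filter on low values and with no intensity trend (adjusted p of 0.0643 and 0.102 in limma). An ISRE core lay in the 250 bases before each of these 4 genes and before Irgm2, which did not pass.

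**Figure D4:**
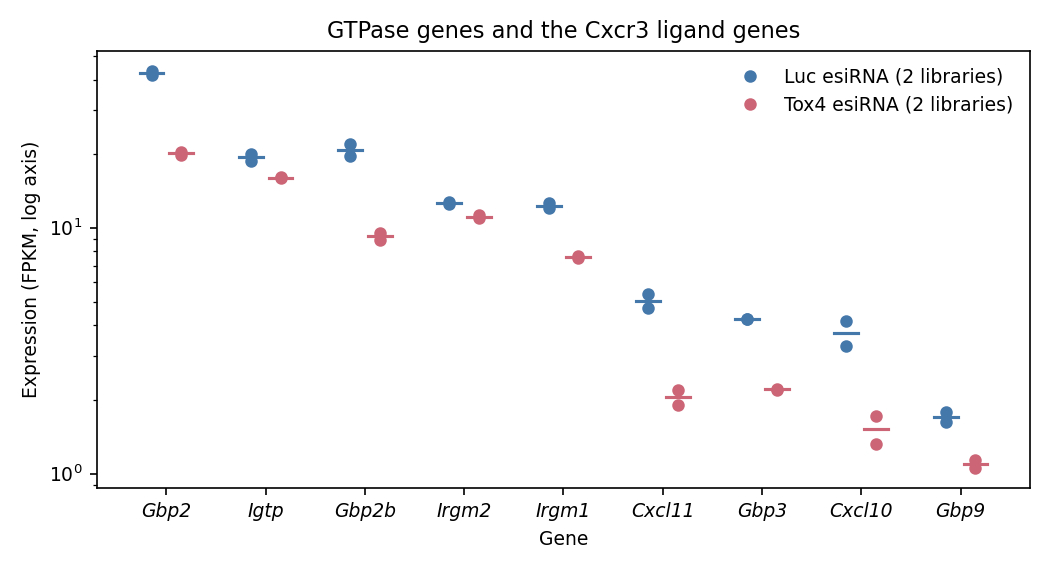
Expression in FPKM on a log axis of the tested GTPase genes and of Cxcl10 and Cxcl11, with 1 point per library and a bar at each group mean. The gaps of Gbp2, Gbp2b, Gbp3, Cxcl10 and Cxcl11 are wide, and those of Igtp and Irgm2 narrow.

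Of the ligands of Cxcr3 other than Cxcl10, Cxcl11 was tested, and it fell. It was at 4.73 and 5.38 FPKM in the Luc libraries and at 1.89 and 2.19 FPKM in the Tox4 libraries, on 29, 26, 9 and 9 reads (log2 difference -0.99, SE 0.10, limma adjusted p = 0.00965). The call did not survive the loss of a Luc library (limma adjusted p up to 0.0751), and the fall was known from earlier results. The other 2 tested genes of the chemokine list did not pass, and their limma-voom calls went in opposite directions.

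Among 27 other tested interferon-stimulated genes, 3 fell, 1 rose and 23 did not pass (median log2 difference -0.12). Herc6, which in the mouse encodes a ligase that joins Isg15 to proteins, fell from 8.50 and 8.83 FPKM to 5.99 and 6.11 FPKM (-0.46, SE 0.06, limma adjusted p = 0.0190). Ifi30, a lysosomal thiol reductase gene of antigen processing, fell from 46.3 and 43.5 to 34.6 and 36.3 FPKM (-0.33, limma adjusted p = 0.0231). Xaf1, a gene of interferon-driven cell death, fell from 2.53 and 2.06 to 0.837 and 1.16 FPKM on 39, 25, 10 and 12 reads (-0.72, limma adjusted p = 0.0484). Ifitm2, a gene of membrane proteins that block virus entry, went the other way, from a mean of 251.7 ± 2.29 to 284 ± 3.74 FPKM (SD, n = 2 each) (0.17, limma adjusted p = 0.0451). Herc6 and Ifi30 were not called without Luc replicate 1 or without Luc replicate 2 (limma adjusted p up to 0.136 each), nor with no intensity trend (0.0531 and 0.0820). Ifitm2 lost its call with any 1 library left out (up to 0.263), with no filter (0.0611) and with no trend (0.140). Xaf1 lost its call when Luc replicate 1, Luc replicate 2 or Tox4 replicate 1 was dropped (up to 0.231), at pseudocounts of 0.5 and 0.1, with no filter (0.0751) and with no trend (0.0765).

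**Figure D5:**
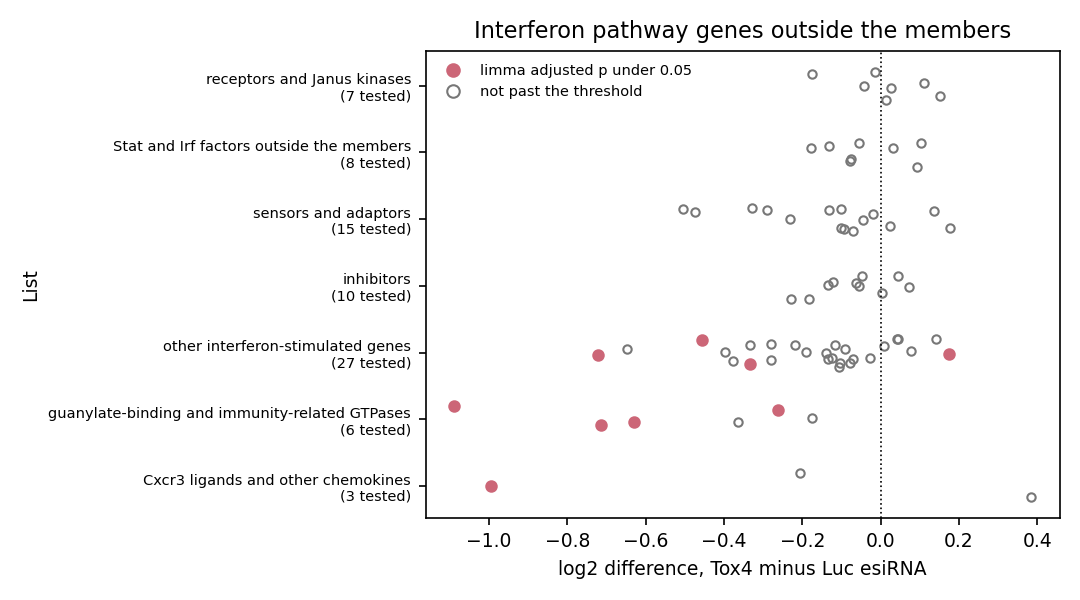
The log2 difference, Tox4 minus Luc esiRNA, of the 76 tested pathway genes outside the set, by list, with filled points for limma adjusted p under 0.05 and open points for the rest. Points of the receptor list lie on both sides of 0 and hold no call, while all 6 GTPase genes lie under 0, 4 of them filled.

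An ISRE core lay before 4 of the 7 pathway genes that fell and have a promoter in the RefSeq table (57.1%), and before 7 of 53 that did not pass (13.2%). The 4 were the GTPase genes Gbp2b, Gbp3, Irgm1 and Igtp, while Herc6, Ifi30 and Xaf1 had none, and Ifitm2, which rose, had 1. For GAS the counts were 1 of 7 (14.3%) and 9 of 53 (17.0%). Such shares rest on few genes and describe letters upstream of the start.

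Genes flanking the 8 members on the chromosome were looked up because they share the region but are not members. Of the 16 tested protein-coding genes found nearest on either side 2 fell and 14 did not pass with limma, at a median distance of 26214 bases. Only genes annotated as protein-coding whose identifier was found in GENCODE were looked up, and 98.7% of all identifiers were found. A nearer tested gene could therefore have been missed, and Gbp2b and Cxcl11, which fell, are not among the 16. Over all tested genes 2.62% fell and 1.89% rose. The flanking genes that fell were Gbp3, already counted above with the GTPase genes, and Psme2, an interferon-inducible proteasome activator gene beside Irf9. Psme2 had means of 93.9 and 79.1 FPKM (-0.24, limma adjusted p = 0.0296). Vat1, whose nearest annotated base lies 47 bases beyond the end of Ifi35, was at 74.6 and 76.0 FPKM in the means (0.03, limma adjusted p = 0.741).

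The genes whose profile over the 4 libraries was most like the mean profile of the members were Anxa3, Nudt17, Zfp36, Tapbp and Thbs1, at distances of 0.0383 to 0.0588 on the centred log2(FPKM + 1) scale among 9061 genes whose mean reached 5 FPKM. Among the members themselves, Irf1 was nearest to the mean profile (0.0460) and Gbp2 farthest (0.594). Tapbp, the tapasin gene of peptide loading on major histocompatibility complex class I, was at 56.3 and 54.9 FPKM in the Luc libraries and at 39.3 and 39.0 FPKM in the Tox4 libraries. Zfp36, which encodes an RNA-binding protein that shortens the life of cytokine messages, was at 30.3 and 29.8 against 21.54 and 21.98 FPKM. These 5 genes were picked for their likeness over 4 libraries, which gives no test.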

How the data were processed

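RNA of 4 libraries was compared, 2 with Luc esiRNA and 2 with Tox4 esiRNA, grouped by title. The authors deposited FPKM values for 15429 genes. The submitters' processing notes name CASAVA 1.8, STAR 2.3.0e and the build GRCm38.p1; the counting program, the annotation and whether strand was used are not stated there, so reads of overlapping genes could have been mixed. Members and lists were chosen with earlier results of these data known.

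Whole reads were worked back from the FPKM values of 100% of genes (tolerance 2e-06 reads), with a median of 548 per tested gene and library. limma 3.58.1 in R 4.3.3 was run on log2(FPKM + 1) for the 12403 genes whose mean reached 1 FPKM, two-sided, with an intensity trend and Benjamini-Hochberg adjustment over all tested genes at 0.05 (2 residual and 4.01 prior degrees of freedom). Differences on that scale understate those of low genes. On simulated reads for 12403 genes, 88.2% of 2-fold and 64.6% of 1.5-fold changes were recovered, and 12.6% of calls were false. That simulation changed 200 genes and gave every gene the same preset dispersion, not estimated from these libraries. Its rates therefore need not hold for the measured genes. Coordinates came from GENCODE vM21 (GRCm38), and older symbols were matched through synonyms. Named pathway genes were up to 4 called genes per list by size of difference or, with none, the 2 of highest level. Alternatives were other pseudocounts, filters, scaling and variance models, each library left out, a replicate block and limma-voom.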

Additional observations from a re-analysis of the deposited data

How the results depend on the processing

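The direction of each of the 8 measured members was the same in every setting that tested it, and their median log2 difference stayed between -0.42 and -0.36. The calls over all tested genes depended on the variance model and on the low genes: 559 with the reported fit, 348 with no filter on low values, 841 with a filter at a mean of 5 FPKM, 78 with no intensity trend and 1466 with limma-voom, and 61 to 437 with 1 library left out. Pathway genes called lower, 8 as reported, numbered 4 with no intensity trend, 21 with limma-voom and 1 to 8 with 1 library left out. Those called higher, 1 as reported, numbered 0 with no intensity trend, 0 with the replicate block, 3 with limma-voom and 0 with any 1 library left out. The cause of these shifts was not tested. By design, fewer genes entered the fit at the higher filter, and fewer libraries entered it when 1 was left out. Same-numbered libraries did not deviate together (r = -0.0962 over 9066 genes), so the numbers were not taken as pairs. With the replicate block 556 genes were called in all and 11 pathway genes as lower, and the rise of Ifitm2 was not past the threshold (limma adjusted p = 0.0920). The log2 difference moved by more than the spread between libraries in 3 settings for Oasl2, 2 for Cxcl10 and 1 for Gbp2. For named pathway genes, Tox4 and Pou5f1, 32 values under alternatives were no longer past the threshold and 1 newly was. Few reads limit Cxcl10, Cxcl11, Xaf1, Oasl2 and Ifi35, and genes under 1 FPKM were not tested.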
